A study of Mus musculus with 8 samples.

Results

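The m6A peaks of 5 genes for large cytoskeletal linkers and scaffolds, Dst, Macf1, Plec, Ahnak and Akap12, were examined in chromatin-associated RNA from mouse embryonic stem cells. The 5 genes had been chosen by their measured peak counts, as genes with many peaks in at least 1 list, so these counts are given as a description and were not tested. Members were all peaks whose midpoint lay within the span of any of these genes on the same strand, and they numbered 121 of the 17068 peaks of the series (0.709%).

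Chromatin-associated RNA (ChrRNA), a fraction rich in unspliced transcripts, had been isolated from E14 mESC, an established line of embryonic stem cells grown with serum and LIF. N6-methyladenosine (m6A) was then immunoprecipitated from its fragments and sequenced (ChrMeRIP-seq) in 8 libraries of 4 groups, each with 2 replicates. The groups were RNA precipitated with the antibody from Synaptic Systems (SySy), with the antibody from Abcam, and the input of each. The authors called peaks on the duplicates together and deposited 3 lists. Cfg1 holds 5277 peaks called with both antibodies, Cfg2 holds 5472 SySy peaks with an Abcam signal too low to be called, and Cfg3 holds 6319 peaks called with Abcam only. The lists hold no value per library, no peak height and no expression level. The depth and the error between replicates are therefore unknown here, and the labelled cell type could not be checked against its markers.

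Dst (dystonin) and Macf1 encode spectraplakins, very long proteins that bind actin filaments and microtubules and carry rows of spectrin repeats between the ends that bind them. Plec encodes plectin, which ties intermediate filaments to other parts of the cytoskeleton and to junctions, Ahnak encodes a scaffold built mostly of a repeated central region, and Akap12 encodes an anchor for protein kinase A. m6A is written onto nascent RNA by the METTL3 and METTL14 complex at short motifs of which GGACT is the best known, and is known to gather in long internal exons and around stop codons.

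The following sequences carry the patterns described below, written as RNA is read from 5′ to 3′ in the letters of the DNA strand that matches it (assembly GRCm38, coordinates of mm10). Capitals mark every GGACT. The first set shows, for Dst and Macf1, the Cfg1 peak with the most GGACT, for Ahnak the narrowest of 4 Cfg1 peaks with 1 GGACT each, and for Akap12, which had no Cfg1 peak, the narrower of its Cfg2 peaks.
Dst SySy_peak_47 (Cfg1, chr1:34237703-34237865, plus strand): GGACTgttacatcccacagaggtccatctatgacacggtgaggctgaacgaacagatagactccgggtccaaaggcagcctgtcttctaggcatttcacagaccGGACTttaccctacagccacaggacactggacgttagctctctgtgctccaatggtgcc
Macf1 SySy_peak_4900a (Cfg1, chr4:123432071-123432285, minus strand): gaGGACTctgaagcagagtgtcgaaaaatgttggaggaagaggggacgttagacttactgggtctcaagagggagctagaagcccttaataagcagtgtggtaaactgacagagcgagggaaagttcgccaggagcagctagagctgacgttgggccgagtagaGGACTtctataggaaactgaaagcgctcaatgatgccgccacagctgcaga
Ahnak SySy_peak_3592c (Cfg1, chr19:9016955-9017128, plus strand): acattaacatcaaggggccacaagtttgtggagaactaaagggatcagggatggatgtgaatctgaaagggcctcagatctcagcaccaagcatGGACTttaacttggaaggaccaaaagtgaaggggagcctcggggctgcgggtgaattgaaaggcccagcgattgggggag
Akap12 SySy_peak_456a (Cfg2, chr10:4355336-4355452, plus strand): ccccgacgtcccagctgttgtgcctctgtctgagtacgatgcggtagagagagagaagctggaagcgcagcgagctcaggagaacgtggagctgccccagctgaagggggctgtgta

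The second set shows the Cfg2 peak of Plec and the Cfg3 peak of Akap12 that hold 2 GGACT each. Only 4 of the 121 peaks held 2, and none held more.
Plec SySy_peak_2431b (Cfg2, chr15:76175621-76175870, minus strand): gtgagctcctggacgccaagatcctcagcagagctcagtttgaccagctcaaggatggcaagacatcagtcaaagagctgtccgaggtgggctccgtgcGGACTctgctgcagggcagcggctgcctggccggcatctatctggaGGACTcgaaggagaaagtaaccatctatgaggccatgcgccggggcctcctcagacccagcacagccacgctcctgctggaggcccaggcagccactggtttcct
Akap12 abcam_peak_578b (Cfg3, chr10:4355939-4356128, plus strand): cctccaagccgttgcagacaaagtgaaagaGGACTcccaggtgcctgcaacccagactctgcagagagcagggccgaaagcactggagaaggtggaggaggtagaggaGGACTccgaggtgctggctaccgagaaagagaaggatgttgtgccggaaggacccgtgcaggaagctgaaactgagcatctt

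The third set shows peaks that lie in introns of the representative transcript but in an exon of another one. Where that exon is a 5′ UTR, 30 bases around the GGACT are given. The last line is the Dst peak that overlaps the Macf1 peak SySy_peak_4900a above when their exons are aligned.
Dst SySy_peak_39 (Cfg1, chr1:34181216-34181365, plus strand): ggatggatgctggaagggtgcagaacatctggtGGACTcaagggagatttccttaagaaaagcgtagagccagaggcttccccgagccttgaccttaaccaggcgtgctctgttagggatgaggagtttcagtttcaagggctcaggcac
Macf1 SySy_peak_4898b (Cfg2, chr4:123410784-123410813, minus strand): aaacatgtaagaGGACTtacaattcatgta
Macf1 SySy_peak_4899b (Cfg2, chr4:123411631-123411660, minus strand): ccacaggacacgGGACTtactgctgccgga
Macf1 SySy_peak_4906 (Cfg2, chr4:123664729-123664758, minus strand): ccgggtgcgagcGGACTgagggagccgagc
Dst SySy_peak_46 (Cfg2, chr1:34229003-34229150, plus strand): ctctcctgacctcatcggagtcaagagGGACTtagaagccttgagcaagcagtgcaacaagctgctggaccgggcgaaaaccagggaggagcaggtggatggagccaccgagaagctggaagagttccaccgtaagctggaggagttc

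Each gene was represented by its annotated transcript with the longest coding sequence (CDS). By the length of that CDS, Dst (Dst-211, 23151 nt) ranked 5 and Macf1 (Macf1-203, 22065 nt) ranked 6 among 21951 protein-coding genes. Ahnak (Ahnak-202, 16968 nt) ranked 12 and Plec (Plec-205, 14073 nt) ranked 39. Akap12 (Akap12-201, 5052 nt) ranked 725, so it was a long gene but not of the size of the other four. The architecture also differed. Dst had 103 exons and Macf1 had 98 over spans of 400437 and 334728 nt, whereas the spliced RNA of Ahnak lay to 96.7% and that of Akap12 to 77.4% in 1 exon. In Plec, the last of 33 exons made up 48% of the spliced RNA.

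Macf1 carried 32 peaks, Dst 29, Plec 25, Ahnak 21 and Akap12 14. By this count they ranked 2, 5, 6, 9 and 41 among the 5466 genes with a peak. For comparison, 24.1% of protein-coding genes held at least 1 peak of any list (5281 of 21951), with a median of 2 peaks among those. Counted as called regions, that is before the authors split a region between neighbouring summits, the 121 peaks came from 80 regions. Of the peaks, 35 were Cfg1, 44 were Cfg2 and 42 were Cfg3.

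The antibodies divided the genes unevenly. Over the 5 genes, 79 of 121 peaks were called with SySy, beside 10670 of 16947 in the rest of the series. Of the peaks of Plec, 23 of 25 were called with SySy (7 Cfg1, 16 Cfg2), as were 18 of 21 in Ahnak (10 Cfg1, 8 Cfg2). In Macf1 the count was 23 of 32 (9 Cfg1, 14 Cfg2), nearer to the share of the rest than in Plec or Ahnak. In Dst the split was 13 called with SySy (9 Cfg1, 4 Cfg2) and 16 with Abcam only. Akap12 stood at the other end, with no Cfg1 peak, 2 Cfg2 peaks and 12 Cfg3 peaks. No peak of any list lay on the opposite strand within the 5 spans. No member peak lay within the span of a further gene on its strand among the 32106 annotated genes used. Pseudogenes, small RNA genes and some other classes were not among these.

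**Figure D1:**
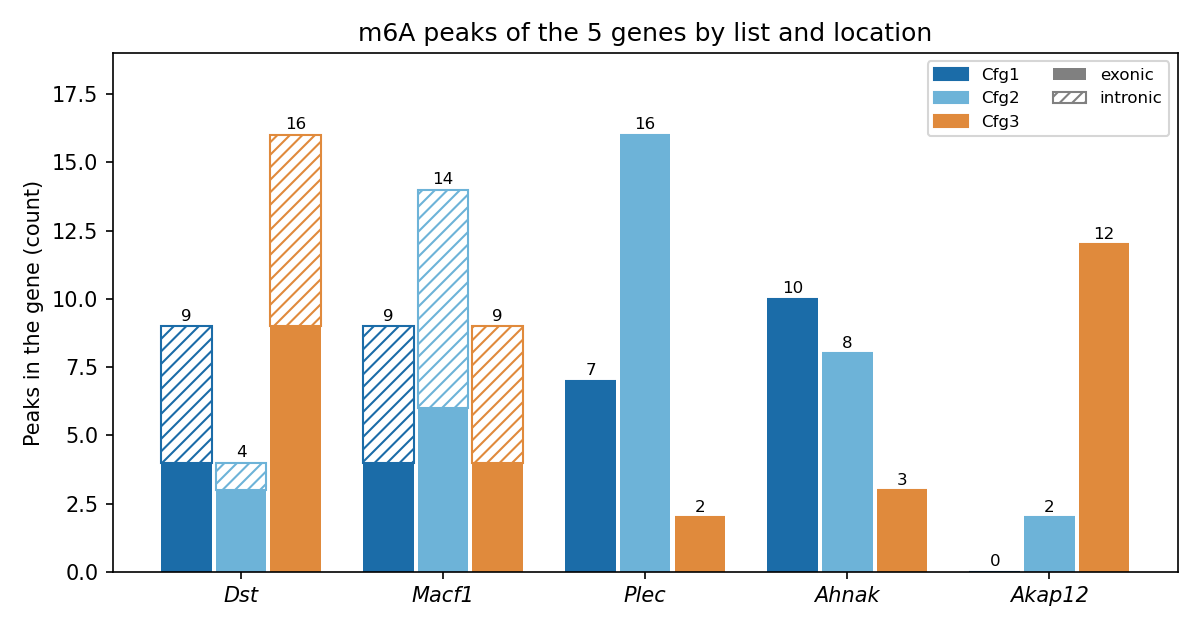
Number of peaks in each gene by list, with exonic peaks as filled bars and intronic peaks hatched on top; the number over each bar is the total. Dst and Macf1 are the genes with intronic peaks, and Akap12 has 12 Cfg3 peaks and no Cfg1 peak.

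Introns separated the spectraplakin genes from the others. All 31 intronic peaks lay in Dst (13 of 29) and Macf1 (18 of 32), while the 60 peaks of Plec, Ahnak and Akap12 were all exonic. Per 100 kb of intron they numbered 3.46 in Dst and 5.78 in Macf1. Those 2 genes also had the longest spans, 400437 and 334728 nt, against 61601 in Plec, 87631 in Ahnak and 93091 in Akap12. How far intron length accounts for this contrast was not tested. In introns lay 28.6% of the Cfg1 peaks of the 5 genes (10 of 35, 95% Wilson interval 16.3 to 45.1%), 20.5% of the Cfg2 peaks (9 of 44, 11.2 to 34.5%) and 28.6% of the Cfg3 peaks (12 of 42, 17.2 to 43.6%). In the rest of the series the shares were 6.14% of Cfg1, 10.2% of Cfg2 and 49.3% of Cfg3 peaks. The rest also includes intergenic peaks (6.96% of Cfg1, 10.2% of Cfg2 and 15% of Cfg3). The members lay within gene spans by rule and could not be intergenic. The Wilson intervals cover counting error only, and peaks of 1 gene are not independent.

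Of the 19 SySy-called intronic peaks, 17 (89.5%) lay at positions that are exonic in another annotated transcript of the same gene, beside 35.4% in the rest of the series (309 of 874). Among the 12 Cfg3 intronic peaks, 2 did (16.7%), beside 6.79% in the rest (210 of 3094). The 17 fell into 4 introns, with 10 of them in exon 1 of Macf1-208, so they are not independent, and the shares were not tested. The number of annotated transcripts, 20 for Dst and 16 for Macf1, was not taken into account. The lists hold no transcript levels, and whether the transcripts with these exons were made was not tested.

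In Dst, intron 35 (9220 nt) held 4 Cfg1 peaks, 1 Cfg2 peak and 2 Cfg3 peaks. All 7 lay in the last 2 exons of Dst-213, a shorter coding transcript that ends within this intron. Exon 23 of Dst-213 (2703 nt) begins 3001 nt past the 5′ splice site. Its first 2 peaks, SySy_peak_37a and SySy_peak_37b, had midpoints at 3050 and 3173 nt, followed by the Cfg3 peaks at 3675 and 3910 nt and a Cfg1 peak at 5560 nt. Exon 24 (2770 nt), the last of Dst-213, held SySy_peak_39 at 6495 nt and the Cfg2 peak SySy_peak_40 at 7403 nt, which lay at -1746 and -838 nt from the stop codon of Dst-213 (negative values lie before it). Of these 7 peaks, only SySy_peak_39 held GGACT, shown above with its flanks. The noncoding transcript Dst-219 covers 3 of the same positions.

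The remaining SySy-called intronic peak of Dst, SySy_peak_47, lay 8538 nt into intron 60 (13372 nt), in the coding part of exon 1 of Dst-220 (2308 nt). It held 2 GGACT, at positions 1 and 105 of the peak. The other 5 intronic Cfg3 peaks of Dst lay far upstream, with 3 in intron 2 (59669 nt), at 5672, 6187 and 12081 nt past its 5′ end, and 2 in intron 5 (27629 nt), at 3832 and 18287 nt. None of these 5 was exonic in another transcript and none held GGACT.

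In Macf1, intron 57 (30085 nt) held 4 Cfg1 and 6 Cfg2 peaks, all with midpoints between 20388 and 23067 nt past its 5′ end, and no Cfg3 peak. All 10 fell within exon 1 of Macf1-208 (4791 nt, beginning at 19770 nt). The first 5 along the RNA lay in its 5′ UTR and the next 5 in its CDS. Of the 10, 2 held GGACT, SySy_peak_4899b and SySy_peak_4898b, both in the 5′ UTR. The 10 peaks belonged to 4 called regions, the widest of which, SySy_peak_4898, spanned 532 nt in 4 subpeaks (2 Cfg1, 2 Cfg2).

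Intron 1 of Macf1 (129604 nt) held the 3 further SySy-called intronic peaks within a stretch of under 1000 nt, at 18621, 18781 and 19303 nt past its 5′ end. The last of these, SySy_peak_4906, lay in the 5′ UTR of Macf1-212, in an exon 1 of 287 nt, while the other 2 were not exonic in any annotated transcript. SySy_peak_4906 extended past the annotated start of Macf1-212. The authors propose that peaks close to transcript starts may be m6Am, a mark the antibody cannot tell from m6A. Which mark this peak holds was not tested. In the same intron, 4 Cfg3 peaks lay at 28906, 29033, 118621 and 129099 nt, none of them exonic elsewhere. The last was 506 nt from the 3′ splice site. A Cfg3 peak in intron 30 (1554 nt) completed the set.

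**Figure D2:**
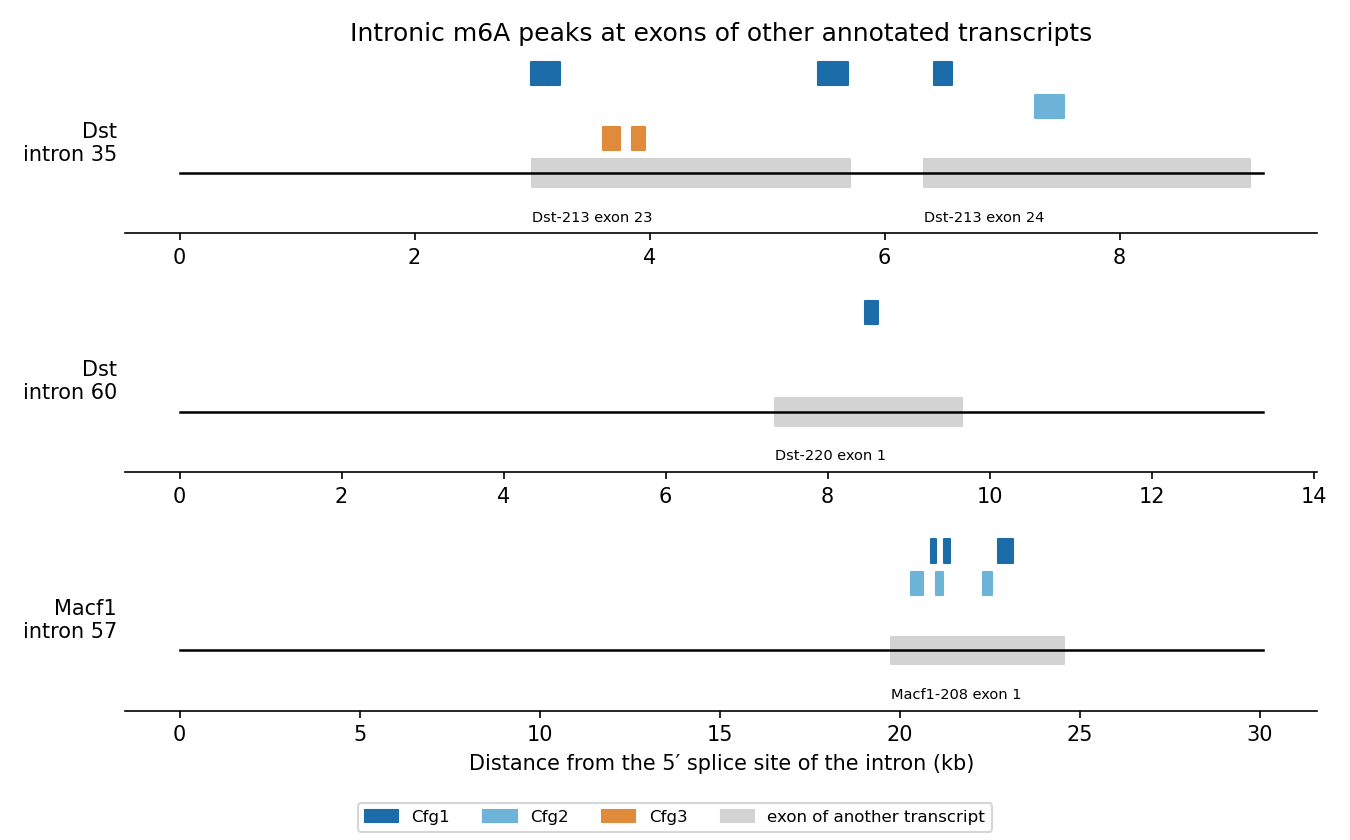
Intronic peaks in introns 35 and 60 of Dst and intron 57 of Macf1, by distance from the 5′ splice site (kb), with peaks of each list as bars drawn to scale and exons of other annotated transcripts in grey (Dst-219 is left out). All 10 peaks of Macf1 intron 57 lie over exon 1 of Macf1-208, and the 7 of Dst intron 35 lie over exons 23 and 24 of Dst-213.

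The exons next to these introns matched in length between both genes. Exon 60 of Dst and exon 57 of Macf1 were each 1472 nt long and stood directly before the introns with the exons 1 of Dst-220 and Macf1-208, and exon 39 of Dst (5292 nt) paired by length with exon 36 of Macf1 (5331 nt). This comparison was chosen after the values were seen. In a global alignment, 57.3% of the 1453 aligned positions of the shorter pair and 56% of the 4948 of the longer pair were identical. Exon 98 of Macf1 (1513 nt) is of similar length but is the last exon of the gene and mostly 3′ UTR. It aligned with Dst exon 60 at 52.7% of 1386 positions and held no peak.

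In the 1472-nt exons, 3 of 4 Dst peaks overlapped a Macf1 peak at aligned positions, and all 3 Macf1 peaks overlapped a Dst peak. SySy_peak_44 of Dst (Cfg1) shared 112 aligned positions with SySy_peak_4901 of Macf1 (Cfg1). SySy_peak_45 (Cfg2) shared 84 with SySy_peak_4900b (Cfg1), and SySy_peak_46 (Cfg2) shared 142 with SySy_peak_4900a (Cfg1). The Cfg3 peak of Dst, abcam_peak_69a, had no counterpart. Peaks covered 38% of the exon in Dst and 34.8% in Macf1, and the extent of their overlap was not tested.

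The GGACT letters themselves were not shared. Of the 2 GGACT of Dst exon 60 and the 4 of Macf1 exon 57, none stood at an aligned position of the other gene. The GGACT of SySy_peak_46 in Dst lay at position 1256 of the exon, and the aligned letters of Macf1, at position 1256 of its own exon and within SySy_peak_4900a, differed from it by C4G and T5C, counted from 1 at the first base of the motif. The GGACT of SySy_peak_4901 in Macf1 (position 353 of the exon) faced letters of Dst with G1A, which give AGACT, a related motif, within SySy_peak_44.

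In the longer pair the overlap was less regular. Dst exon 39 held 9 peaks (3 Cfg1, 1 Cfg2, 5 Cfg3) from SySy_peak_41, which starts at nt 106 of the exon, to abcam_peak_67, which ends at nt 5057. Macf1 exon 36 held 7 (1 Cfg1, 4 Cfg2, 2 Cfg3), from SySy_peak_4905c to abcam_peak_6094a, between nt 284 and 3745, and its last 1586 nt held none. The overlaps were 3, of 153, 32 and 8 aligned positions, and the 2 widest paired a Cfg3 peak of Dst with a SySy-called peak of Macf1. Peaks covered 24.3% of this exon in Dst and 19% in Macf1.

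**Figure D3:**
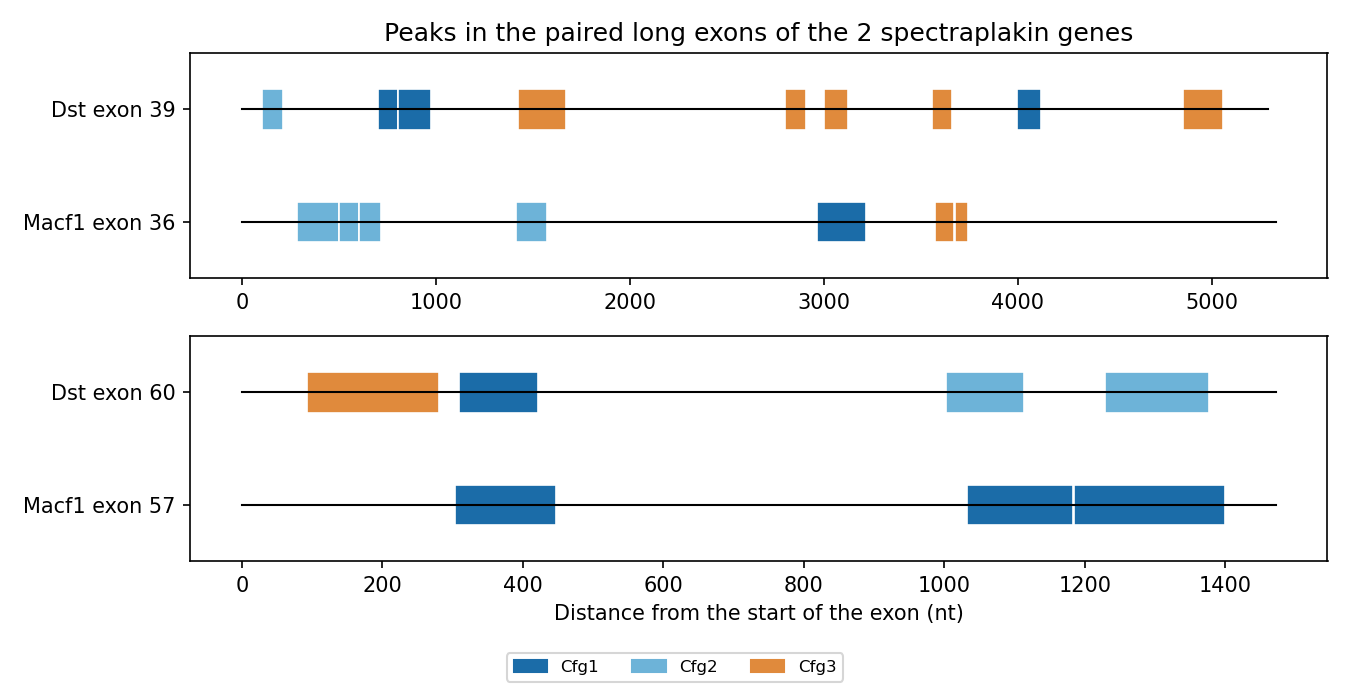
Peaks in the paired long exons of Dst (upper line) and Macf1 (lower line), by distance from the start of the exon (nt), coloured by list and drawn to scale. In the 1472-nt exons below, the 3 Macf1 peaks lie opposite the 3 SySy-called peaks of Dst.

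In Plec all peaks were exonic, and 19 of 25 lay in the last exon, exon 33 (7412 nt). They ran from nt 516 to nt 7182 of that exon and covered 44.4% of it. The called region SySy_peak_2431 lay here (chr15:76175347-76177870, minus strand). It spanned 2524 nt and had been split into 12 subpeaks, more than any other of the 7465 SySy regions of the series. Of the 12, subpeaks d, e and l were Cfg1 and the other 9 were Cfg2, and 2 held GGACT. Exon 32 (3381 nt) held 5 peaks, and exon 15 held a single Cfg2 peak.

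The Plec peaks called with SySy had a median GC content of 62%, against 48.3% in Macf1, 49.6% in Ahnak, 51.5% in Dst and 59.5% in the 2 of Akap12, and the whole of exon 33 had 60.3%. GGACT was present in 4 of the 7 Cfg1 peaks of Plec but in 1 of its 16 Cfg2 peaks, SySy_peak_2431b. The 3′ UTR held SySy_peak_2427, a Cfg1 peak 876 nt past the stop codon and 1 of only 2 peaks outside coding sequence in the 90 exonic peaks.

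In Ahnak all 21 peaks lay in the CDS of exon 5 (17498 nt) and covered 21.7% of it. The first run of peaks began at the start of the exon with the Cfg3 peak abcam_peak_4393a and went on with SySy_peak_3584, a region of 1402 nt split into 6 subpeaks, 2 of them Cfg1 and 4 Cfg2. The last run held SySy_peak_3592, split into 4 Cfg1 subpeaks over 791 nt, and ended with the Cfg2 peak SySy_peak_3593, whose midpoint lay at -174 nt from the stop codon. Divided into 3 equal stretches from the 5′ end, the exon held 9, 6 and 6 peaks.

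The repeated build of Ahnak exon 5 was visible in its sequence. Of its stretches of 75 nt, the length of the reads, 16.1% (2801 of 17424) occurred more than once in the exon, all between nt 3400 and 13394. Within the peaks none did. The longest peak-free stretch, of 2497 nt, ran from nt 1492 to 3988 and held the start of 184 of these repeated stretches. How reads from them were placed was not tested. The longest exons of the other 4 genes held no repeated stretch of this length.

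Akap12 held its peaks close together, 13 of 14 in exon 3 (4798 nt) and 1 in the 3′ UTR in exon 4. Cfg3 peaks covered 27.6% of its spliced RNA, against 5.7% in Dst and 1.33 to 2.12% in the other three. The pair of Cfg2 peaks, SySy_peak_456a and SySy_peak_456b (chr10:4355336-4355615, 280 nt together), stood among them with no GGACT. Of the 12 Cfg3 peaks, 2 held GGACT, among them abcam_peak_578b shown above. The last peaks of Akap12, abcam_peak_581 and abcam_peak_582, lay at -151 and 66 nt from the stop codon.

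**Figure D4:**
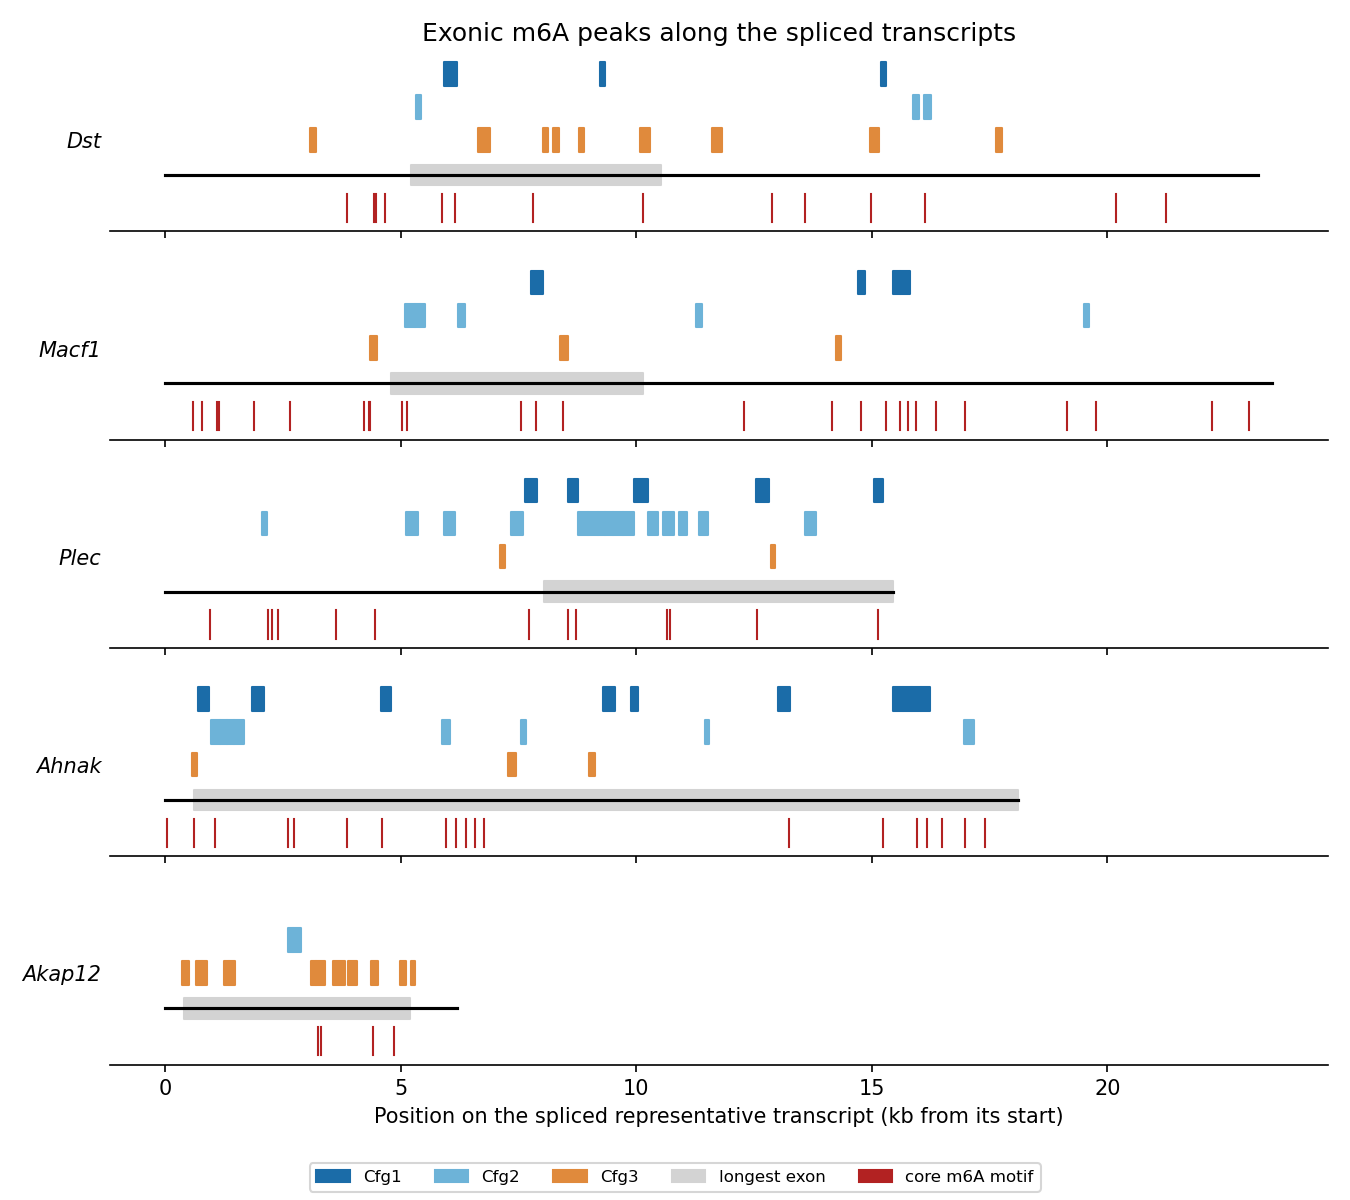
Exonic peaks of each list along the spliced representative transcript of each gene (kb from its start), placed by midpoint and drawn with their genomic width, with the longest exon in grey and GGACT as red ticks below. The longest exons hold 69 of the 90 exonic peaks. Ahnak has all of its 21 in exon 5, which makes up 96.7% of its spliced RNA.

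Across the 5 genes, 69 of 90 exonic peaks lay in the longest exon of their gene. In Dst the longest exon held 56.2% of the exonic peaks with 22.8% of the spliced length, in Macf1 50% with 22.7%, in Plec 76% with 48%, in Akap12 92.9% with 77.4% and in Ahnak 100% with 96.7%. Exons of 1000 nt or more held 81 of the 90 (90%), against 69% elsewhere in the series (exonic peaks of coding genes). CDS held 88 of 90 (97.8%) against 63%, and 3 of 90 (3.33%) lay within 200 nt of the stop codon against 22.3%. However, CDS made up most of the spliced length of the 5 genes, from 5052 of 6195 nt in Akap12 to 23151 of 23201 nt in Dst. Whether these shares differ from those that length alone would give was not tested. The 5′ UTR of the representative transcripts held none. Exonic peaks per kb of spliced RNA numbered 2.26 in Akap12, 1.62 in Plec, 1.16 in Ahnak, 0.69 in Dst and 0.596 in Macf1, beside a median of 0.498 over the coding genes with an exonic peak. With SySy-called peaks alone they numbered 1.49 in Plec, 0.994 in Ahnak, 0.426 in Macf1, 0.323 in Akap12 and 0.302 in Dst.

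Cfg3 peaks lay near SySy-called peaks in some genes and apart from them in others. In Plec and Ahnak all 5 Cfg3 peaks lay within 500 nt of a SySy-called peak, with gaps of 22 to 180 nt. In Akap12, 2 of 12 did, in Dst 4 of 16 and in Macf1 2 of 9, with median gaps of 1362, 4123 and 9407 nt. These gaps depend on how many SySy-called peaks a gene held, 2 in Akap12 and 23 in Plec. They also include intronic Cfg3 peaks, 7 of the 16 in Dst and 5 of the 9 in Macf1. The gaps were not tested.

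The last comparison asked whether the peaks of these genes hold GGACT, a measure not used to choose them, as often as peaks elsewhere. Over the whole series, GGACT was present in 38.2% of Cfg1, 32.2% of Cfg2 and 17.1% of Cfg3 peaks. In the 5 genes it was present in 40% of Cfg1 peaks (14 of 35, 95% Wilson interval 25.6 to 56.4%), against 38.2% in the rest of the series (2003 of 5242). The two-sided exact test of Fisher gave p = 0.86 and an adjusted p of 1. For Cfg3 the shares were 16.7% (7 of 42, 8.32 to 30.6%) and 17.1% (1076 of 6277, exact test, p = 1, adjusted p = 1).

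For Cfg2 the share was 20.5% in the 5 genes (9 of 44, 11.2 to 34.5%), against 32.3% in the rest (1753 of 5428). The difference of -11.8 percentage points (95% interval -21.2 to 2.26) did not pass the test (Fisher's exact test, p = 0.11, adjusted p = 0.37). Without Plec it was -3.72 points, and with 1 peak per called region it was -3.3 points (9 of 26 against 1657 of 4370, exact test, adjusted p = 1). With A also allowed at the first and second base it was -14.7 points (24 of 44 against 3757 of 5428, exact test, adjusted p = 0.096). With only peaks in exons of coding genes it was -14.2 points (6 of 35 against 1325 of 4229, exact test, adjusted p = 0.39). The Cfg1 difference was 1.79 points over peaks and 8.85 over regions (exact test, adjusted p = 0.82). For Cfg1 the interval of the difference ran from -12.7 to 18.3 points and for Cfg3 from -8.88 to 13.5. Differences within these ranges are not excluded with these numbers of peaks. Subpeaks of 1 region share their source, and the tests treat them as independent.

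Within the 5 genes, SySy-called peaks held GGACT in 29.1% of cases (23 of 79, 20.3 to 39.9%) and Cfg3 peaks in 16.7% (7 of 42). The difference of 12.4 points (-4.07 to 26.1) did not pass the test (Fisher's exact test, p = 0.18, adjusted p = 0.37, Benjamini-Hochberg over the 4 motif tests). It passed when A was also allowed at the first and second base of the motif, and narrowed to 5.03 points with GGAC, as given under the alternatives. In the rest of the series, GGACT was present in 35.2% of SySy-called peaks (3756 of 10670) and 17.1% of Cfg3 peaks (1076 of 6277). With A also allowed, the shares there were 74.1% and 50.4%. A higher share in SySy-called peaks was thus not particular to the 5 genes. The SySy-called peaks of the 5 genes were also wider, with a median of 166 nt against 127 nt for their Cfg3 peaks. Among the SySy-called peaks of the 5 genes, 30% of the exonic (18 of 60) and 26.3% of the intronic (5 of 19) held GGACT. By gene the share of SySy-called peaks was 38.9% in Ahnak (7 of 18), 30.8% in Dst (4 of 13), 30.4% in Macf1 (7 of 23) and 21.7% in Plec (5 of 23), with 0 of 2 in Akap12. On the opposite strand the motif, which there reads AGTCC, was present in 10.1% of the SySy-called peaks of the 5 genes and in 13.2% of those of the rest of the series.

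**Figure D5:**
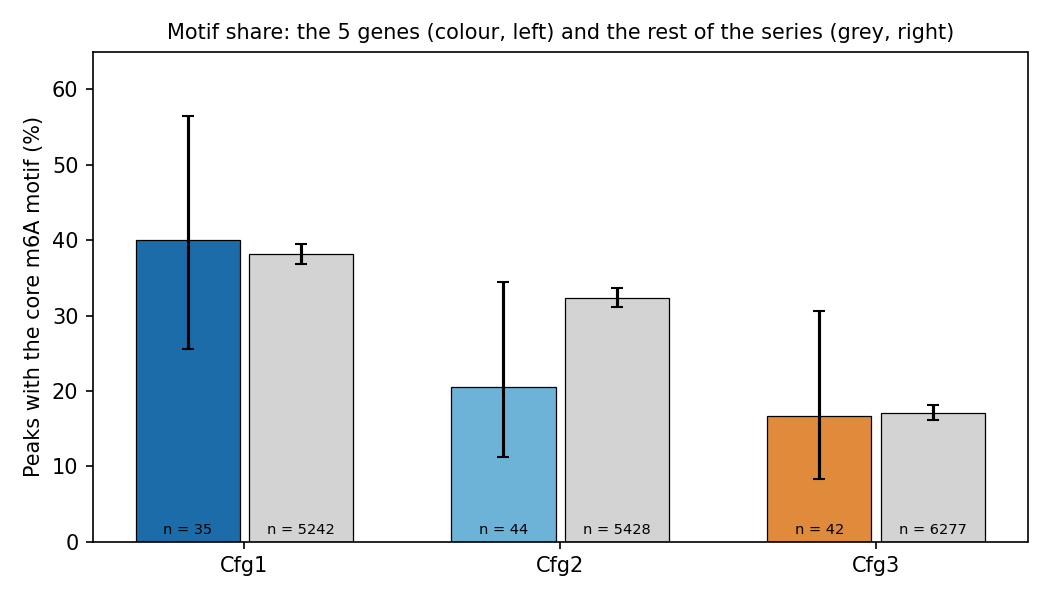
Percentage of peaks that hold the core m6A motif in each list, for the 5 genes (coloured, left) and the rest of the series (grey, right), with 95% Wilson intervals as error bars and the number of peaks at the foot. The Cfg2 share is 20.5% against 32.3%, with overlapping intervals.

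Seen from the RNA, most GGACT of these genes lay outside the peaks. The 5 spliced transcripts held 77 GGACT, of which 21 lay in SySy-called peaks, 7 in Cfg3 peaks and 49 in neither. In Plec, SySy-called peaks covered 27.9% of the spliced RNA and 7 of its 13 GGACT. In Ahnak they covered 18.9% and 7 of 19, in Macf1 6.7% and 5 of 27, and in Dst 3.75% and 2 of 14. Akap12 held 4 GGACT, of which 3 lay in Cfg3 peaks and none in its SySy-called peaks.

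The 5 genes had been chosen for their high counts, so the counts of other linker and scaffold genes are given beside them with no comparison. Of a list of 39 genes for plakins, spectrins, nuclear-envelope linkers, ankyrins, filamins, talins, AKAP scaffolds and microtubule-end proteins, 25 held a peak, with a median of 2 over the list. Akap9, the gene for a centrosome and Golgi kinase anchor, held 10 (1 Cfg1, 4 Cfg2, 5 Cfg3), and Sptbn1, a beta-spectrin gene, held 10 (6, 1 and 3). Eppk1, which encodes epiplakin, held 9, Actn4, an alpha-actinin gene, held 7, 6 of them intronic, and Ahnak2, a relative of Ahnak, and Akap13 held 6 each. Syne1, which has the longest CDS of the list (26397 nt), held no peak, and Syne2 (20622 nt), likewise a gene for a nuclear-envelope spectrin-repeat protein, held 1. Dmd, Evpl, Ppl and Flna held none.

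By the sum of absolute differences over 6 counts (exonic and intronic peaks of each list), the gene most like Ahnak among 141 other genes with at least 10 peaks was Kmt2d (distance 4), with 12 Cfg1, 6 Cfg2 and 3 Cfg3 peaks. For Akap12 it was D10Wsu102e (distance 3), with 2 Cfg2 and 9 Cfg3 peaks, and for Dst it was Kat6b (distance 10), with 7 intronic and 9 exonic Cfg3 peaks as in Dst but no intronic SySy-called peak. Plec was nearest to Pkd1 (distance 11). The nearest to Macf1 was Pcf11, at a distance of 18, wider than for the other four.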

How the data were processed

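The authors deposited 3 peak lists, called with MACS2 2.1.1 on both replicates of an antibody together, with input as control (the submitters' notes also name HOMER), as regions trimmed to 125 nt on either side of each summit and split between summits. All deposited values in the score column were 0 and were not used. The strand of 1 entry carried an extra character and was taken as plus.

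Peaks were placed by their midpoint on GRCm38.p6 using GENCODE vM21, which is older than the study's annotation. The 5 representative transcripts, spliced from the assembly, matched the annotated sequences base for base. Motif shares were compared by Fisher's exact test (two-sided), with Benjamini-Hochberg adjustment over 4 tests and a threshold of 0.05, and intervals of differences combine Wilson limits. Alignments used match 2, mismatch -1, gap opening -5 and extension -1. On simulated data, 300 of 300 positions were placed in the right exon or intron. Of 200 tests of 40 against 5000 peaks with shares 30 points apart, 196 were called, against 10 of 200 with equal shares. These calls used unadjusted p under 0.05 (Fisher's exact test) and independent peaks, unlike the tests above. Smaller differences and the comparison within the 5 genes were not simulated. The sequence of the Cfg1 peak of Plec that the naming rule takes in is not reported here. The members, gene list, named genes (those with most peaks in the list and the nearest by profile) and tests were chosen with earlier results of these data known. Software was Python 3.11.15 with scipy 1.17.1, Biopython 1.88 and pysam 0.24.0.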

Additional observations from a re-analysis of the deposited data

How the results depend on the processing

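No paired analysis was possible because the lists hold no value per library. For the same reason no replicate was left out, and with no score no stricter calling threshold was possible. The GGACT share of Cfg3 peaks, -0.475 points from the rest of the series, changed sign with GGAC (9.44 points), with 1 peak per called region (0.514), with only peaks in exons of coding genes (1.99), and with only coding sequence of exons of 1000 nt or more (5.92, an alternative added after seeing the data). None of these passed the test (Fisher's exact test, adjusted p from 0.56 to 1). Leaving out each gene in turn gave -1.99 to 2.09 points for Cfg3, -2.5 to 4.1 for Cfg1, of which the lowest was without Plec, and -15.6 to -3.72 for Cfg2. With 1 peak per called region, Cfg1 differed by 8.85 points and Cfg2 by -3.3. Between SySy-called and Cfg3 peaks of the 5 genes the difference ran from 9.56 to 14.6 points without each gene. It was 25.5 points with 1 peak per called region, where it did not pass (exact test, adjusted p = 0.081). When A was also allowed at the first and second base of the motif it was 24.2 points (exact test, adjusted p = 0.049). That was the only setting in which any of the 4 motif tests passed. In the rest of the series, 74.1% of SySy-called and 50.4% of Cfg3 peaks held a motif by this setting. With GGAC the difference within the 5 genes fell to 5.03 points (exact test, adjusted p = 0.85). With GGACT counted only within the 100 nt around the midpoint it fell to 7.08 points (exact test, adjusted p = 0.88). The share of Cfg3 peaks in introns, 28.6%, was 42.9% by the 5′-most base and 23.1% with the longest transcript, which excludes 3 Dst peaks. The number of peaks was 85 when each called region counted once per list and 121 when any overlap with the gene counted. The other descriptions moved by less than their 95% intervals.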
